A study of Aedes aegypti with 20 samples.

Results

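Orco (AAEL005776), the ionotropic receptors Ir25a (AAEL009813), Ir8a (AAEL002922) and Ir76b (AAEL006360), and the gustatory receptors Gr1 (AAEL002380), Gr2 (AAEL002167) and Gr3 (AAEL010058) were followed in RNA sequencing of pedicels and heads of the yellow fever mosquito Aedes aegypti. These 7 genes were chosen by gene ID from the 19804 gene IDs of the table, 4 of them as olfactory coreceptors and 3 as carbon dioxide receptors, and all 7 were found, each as 1 transcript. The animals were virgin males and females that had not fed on blood, all of the Liverpool strain, which spent 2 days in an incubator before freezing at zeitgeber time 12. Male pedicels, female pedicels, male heads and female heads gave 5 libraries each, 20 in all, and the sources used here give neither the age of the animals nor the number pooled in a library. The labels do not say whether antennae and palps stayed on the heads. Nor do they say whether libraries of the same group are from different animals, so the p-values reflect library-to-library spread that may be technical.

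Insect odorant receptors work as ion channels built from a tuning receptor and the coreceptor Orco, and ionotropic receptors likewise need a coreceptor, Ir25a, Ir8a or Ir76b. Ir8a serves acid-sensing neurons, Ir76b neurons that sense amines, and Ir25a a broad set of smell, taste, humidity and temperature neurons. In Drosophila melanogaster Ir25a is also expressed in chordotonal organs, the class of stretch receptor to which Johnston's organ, the ear in the pedicel, belongs. Mosquitoes sense carbon dioxide with Gr1, Gr2 and Gr3 in a neuron class of the maxillary palp, and most odour-sensing neurons of the antenna sit in the flagellum beyond the pedicel.

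Library totals of estimated counts lay between 5060010 and 9404311. Levels are given in CPM, the count scaled to a common library size, with sizes scaled by edgeR's TMM factors, which ran from 0.49 to 1.31. A set of 50 transcripts abundant in heads, picked for their low pedicel levels, reached 34.1% to 67.8% of their mean in heads in the female pedicels, 36.6% in male pedicel 2 and 4.34% to 5.64% in the other 4 male pedicels. No other gene of the table could be named, so the labelled tissues were not checked against further markers, and levels of different genes were not compared because transcript lengths were not used here.

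All 7 genes were detected in female pedicels and 6 of them in male pedicels, where detection meant at least 1 count in at least 3 of the 5 libraries. The exception was Gr3 in males, with 2 counts over the 5 male pedicels, under the floor of 3 counts that a count of 0 allows. The 3 genes with enough counts for the main fit (Orco, Ir25a and Ir8a) were all called higher in the pedicel than in the head, as were 26.7% of all genes tested in males and 18.9% in females. The male Orco call was lost with limma-voom and the female Ir8a call in 11 of 26 alternatives. With only male pedicels and male heads in the fit, 2 receptor genes passed the filter, without Orco. Its place in the male count thus rests on the female libraries. Of the 3, Orco was called between male and female pedicels, where 39.5% of all genes were called. In heads 7 genes were detected in females and 5 in males, where Ir76b had 2 counts and Gr3 none over 5 libraries. With a minimum of 5 counts in 3 libraries 5 of the 7 were left in pedicels of males and 6 in those of females, with 2 in male and 3 in female heads.

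**Figure D1:**
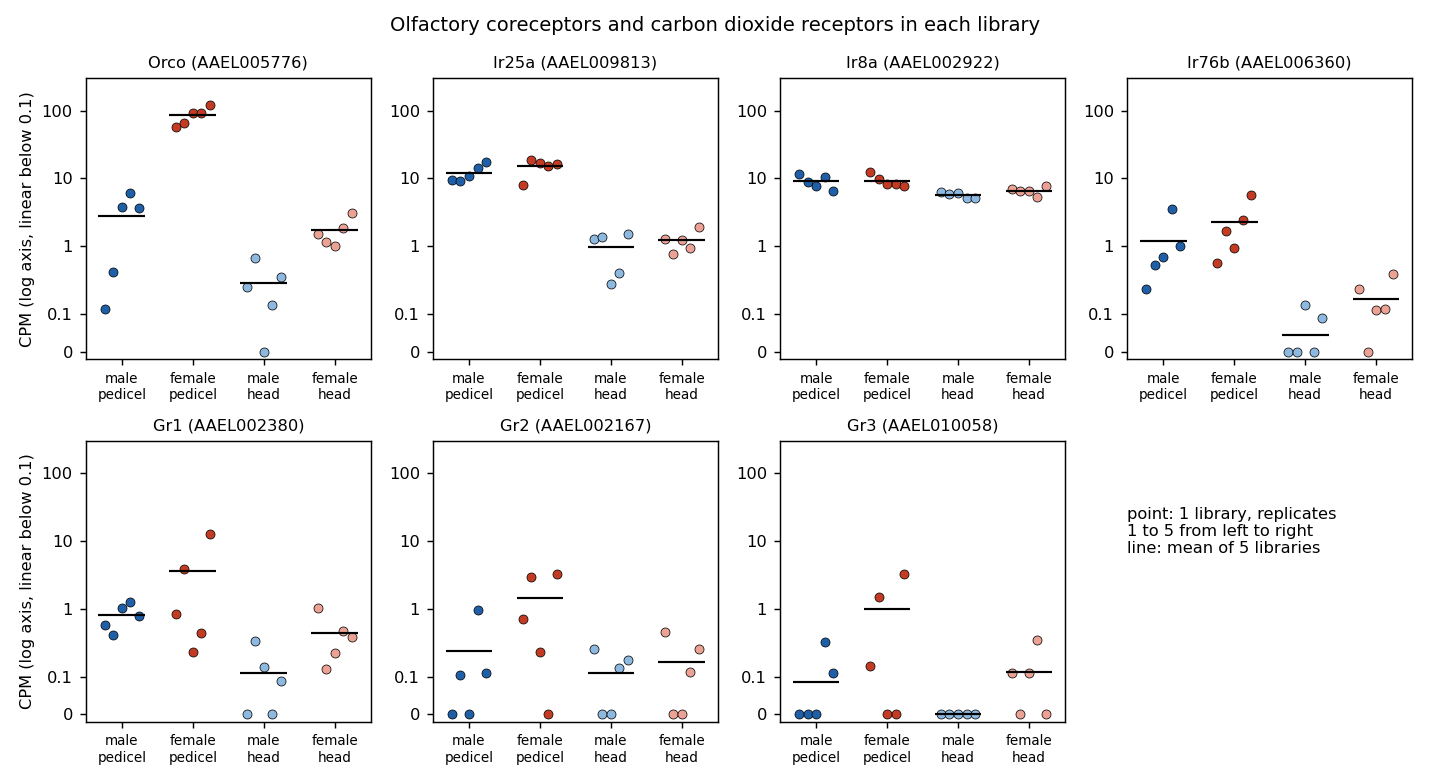
Level of each of the 7 genes in every library, in CPM on a log axis that is linear below 0.1, for male pedicels, female pedicels, male heads and female heads. Points are libraries (replicates 1 to 5 from left to right) and lines are means of 5: Orco in female pedicels (58.3 to 122.9 CPM) lies above every other library, Ir25a parts pedicels from heads, and Ir8a varies least.

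Orco, the coreceptor of all odorant receptors, was the gene with the largest difference between the sexes of the 3 tested. In female pedicels it stood at 58.3, 66.1, 94.0, 92.9 and 122.9 CPM in libraries 1 to 5, from 359 to 481 counts each. In male pedicels it stood at 0.116, 0.417, 3.81, 6.07 and 3.72 CPM, from 1 to 33 counts. Every female pedicel thus lay above every male pedicel, and the male libraries fell into 2 low ones (1 and 2) and 3 higher ones.

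Orco was 35-fold lower in male than in female pedicels, with means of 2.83 ± 2.52 and 86.8 ± 25.6 CPM (SD, n = 5 each). The log2 fold, male over female, was -5.13 (SE 0.55, 95% interval -6.30 to -3.96; edgeR quasi-likelihood adjusted p = 1.3e-06). Of the 3 receptor genes tested, Orco alone was called, in a comparison where 39.5% of the 11381 genes tested were called and 21.2% were called lower in males. There were 62 genes with a more negative fold. The libraries of the sexes did not overlap for 20.6% of all genes tested. The pedicels also differed in the share of counts held by transcripts whose values are identical to those of another gene ID, from 2.17% to 35.2%. Among pedicels at or below 20% (male 1, 2 and 5, female 1 and 2) the log2 fold of Orco was -5.45. Among those above (male 3 and 4, female 3, 4 and 5) it was -4.46. Each of these folds rests on few libraries. Fewer Orco neurons and less Orco RNA per neuron cannot be told apart in bulk tissue. Nor can either be told apart from unequal amounts of RNA from tissue next to the pedicel, which was not tested.

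Orco is also given as counts per 100 counts of Ir25a in the same library, as a description. There were 738, 355, 556, 604 and 752 Orco counts per 100 Ir25a counts in female pedicels 1 to 5. In male pedicels the ratio was 1.23, 4.55, 34.9, 43.2 and 21.2 per 100. The groups did not overlap, and the mean log2 ratio in males minus that in females was -5.69.

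The level of the 50 head transcripts was also higher in female than in male pedicels, and its part in the Orco difference was not tested. The 50 were picked by their lowest pedicel value, and the lowest libraries were male, so the picking itself favours a gap in this direction. Male pedicel 2, at 36.6% of the head level, held 0.417 CPM of Orco, and female pedicel 2, at 34.1%, held 66.1 CPM. Male pedicel 2 stood apart from the other male pedicels (4.34% to 5.64%), so this pair of libraries is a description and not a test. The Orco values of the heads are given next.

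**Figure D2:**
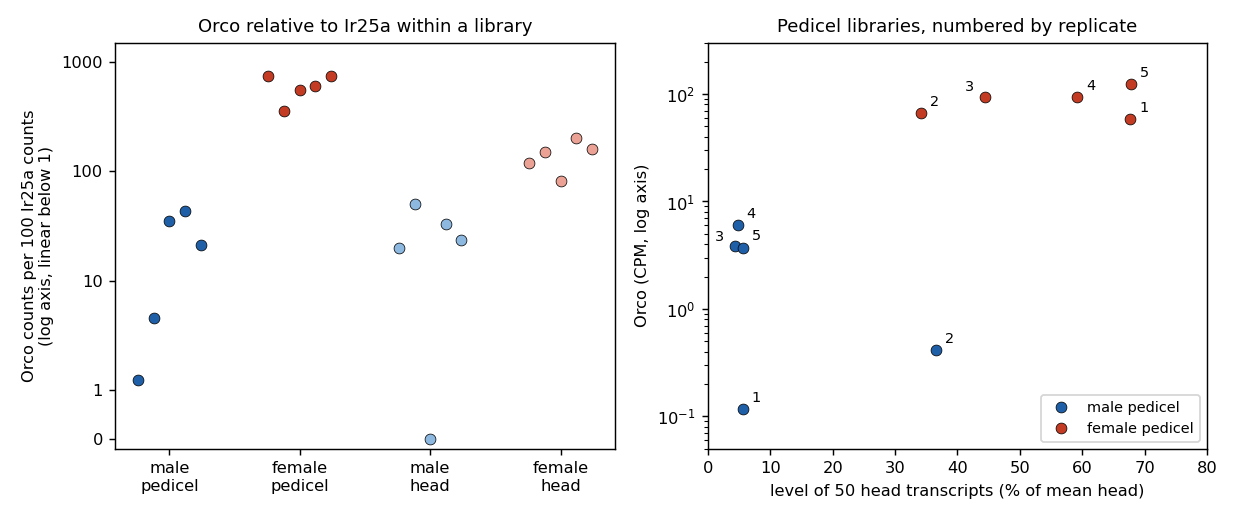
Left, Orco counts per 100 Ir25a counts in every library of the 4 groups, on a log axis that is linear below 1; right, Orco level (CPM, log axis) in the 10 pedicel libraries against the median level of 50 head transcripts in percent of the mean head. Female pedicels hold 355 to 752 Orco counts per 100 Ir25a counts against 1.23 to 43.2 in male pedicels. Male pedicel 2 (head transcript level 36.6%, 0.417 CPM of Orco) stands apart from the other male pedicels (4.34% to 5.64%). The lowest female pedicel, 2, stands at 34.1% and 66.1 CPM.

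In female heads Orco stood at 1.49, 1.16, 1.02, 1.87 and 3.06 CPM, from 9 to 24 counts. In male heads it stood at 0.252, 0.676, 0, 0.134 and 0.352 CPM, from 0 to 4 counts. Every female head lay above every male head. The libraries of the head groups did not overlap, in either direction, for 9.82% of all genes tested. The log2 fold between the head groups, male over female, was -2.56 (SE 0.83, 95% interval -4.32 to -0.80), and it did not pass the threshold (adjusted p = 0.069), where 7.86% of genes were called. The call was made in 7 of the 25 alternatives that gave a value, DESeq2 among them (adjusted p = 6.9e-03), and the adjusted p ran from 2.1e-03 to 2.4e-01. The fit with the heads alone gave no value, since Orco did not pass the filter there. Its test between heads thus rests on the pedicel libraries being in the fit.

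Between tissues, Orco was 50.2-fold higher in pedicels than in heads of females (log2 fold 5.65, SE 0.56, adjusted p = 3.2e-07), and no libraries overlapped. There were 46 genes with a larger fold there. In males it was 8.46-fold higher in the pedicel (log2 fold 3.08, SE 0.82, adjusted p = 3.9e-03), but male pedicels 1 and 2 lay within the range of the male heads. The male call was lost with limma-voom (log2 fold 2.05, adjusted p = 2.0e-01). With only male pedicels and male heads in the fit, Orco did not pass the filter and had no value. The sex difference in the pedicel minus that in the head, the interaction term of the fit, was -2.57 on the log2 scale (SE 1.23, 95% interval -5.18 to 0.05, adjusted p = 0.19), where 11.9% of genes were called. None of the 3 genes tested was called in the interaction, in the main fit or in any alternative, and Orco had an unadjusted p of 0.051.

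In order of mean level, Orco ran from female pedicels to male pedicels, female heads (1.72 ± 0.819 CPM) and male heads (0.283 ± 0.256 CPM). Male pedicels and female heads, neighbours in this order, overlapped. The gene whose log2 CPM followed Orco most closely over the 20 libraries was AAEL006176, with a Pearson r of 0.99 (0.92 for deviations from the group means). It stood at 408 ± 111 CPM in female pedicels, 5.88 ± 4.98 in male pedicels, 5.48 ± 4.38 in female heads and 0.495 ± 0.678 in male heads (SD, n = 5 each). The table pairs this ID with no name, and 38 genes in all had an r over 0.9 with Orco.

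Ir25a, the most widely used of the ionotropic coreceptors, parted the tissues and not the sexes. In male pedicels it stood at 9.43, 9.18, 10.9, 14.1 and 17.6 CPM, and in female pedicels at 7.91, 18.6, 16.9, 15.4 and 16.4 CPM. In heads it ranged from 0.273 to 1.5 CPM in males and from 0.776 to 1.91 CPM in females, on 2 to 17 counts per library. Every pedicel library lay above every head library of either sex, and within each tissue the libraries of the sexes overlapped.

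Ir25a was 12.3-fold higher in pedicels than in heads of males (12.2 ± 3.57 against 0.956 ± 0.573 CPM; log2 fold 3.62, SE 0.36, adjusted p = 1.2e-07). In females it was 12.1-fold higher (15.0 ± 4.15 against 1.23 ± 0.436 CPM; log2 fold 3.59, SE 0.35, adjusted p = 1.8e-07). Its interaction of sex and tissue was 0.03 on the log2 scale, with a 95% interval of -0.88 to 0.94 (adjusted p = 0.98). All 3 genes tested were called higher in the pedicel in each sex, in comparisons where 51.0% of genes were called in males (26.7% higher in the pedicel) and 35.4% in females (18.9% higher). Libraries of the 2 tissues did not overlap for 35.8% of all genes in males and 25.5% in females. The median log2 fold of the 3 genes was that of Orco in males (3.08) and of Ir25a in females (3.59). Over all genes tested the median was 0.10 in males and 0.08 in females. Orco passed the filter for the male comparison only with the female libraries included. The 4 receptor genes outside the main fit are left out, so these medians do not describe the 7 genes.

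Between the sexes Ir25a had a log2 fold, male over female, of -0.30 in the pedicel (95% interval -0.92 to 0.33, adjusted p = 0.45) and -0.32 in the head (95% interval -1.17 to 0.53, adjusted p = 0.70). The interval in the pedicel leaves out a fold as large as that of Orco. With library totals alone the pedicel value turned to 0.11, with a median over all genes of 0.35 on that scale. The gene most alike over the 20 libraries was AAEL006014 (Pearson r 0.978, and 0.66 within groups), at 30.6 ± 6.98 and 40.5 ± 14 CPM in male and female pedicels and 1.26 ± 0.433 and 1.88 ± 0.45 CPM in male and female heads.

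Ir8a, the coreceptor of acid-sensing receptors, had the lowest coefficient of variation of the 7 genes in each group and the smallest tissue differences of the 3 tested. In male pedicels it stood at 11.8, 8.76, 7.62, 10.5 and 6.43 CPM, and in female pedicels at 12.4, 9.94, 8.33, 8.25 and 7.66 CPM. In male heads it ranged from 5.19 to 6.30 CPM and in female heads from 5.39 to 7.78 CPM. Male pedicels lay above male heads without overlap, and 1 female pedicel lay within the range of the female heads.

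The pedicel was 1.57-fold above the head in males (log2 fold 0.65, SE 0.17, adjusted p = 3.5e-03) and 1.42-fold in females (log2 fold 0.51, SE 0.17, adjusted p = 2.6e-02). The female call was lost in 11 of 26 alternatives, among them without female pedicel 1 (log2 fold 0.35, adjusted p = 1.2e-01), without female pedicel 2 (adjusted p = 5.6e-02), and without female head 2, 3 or 4 (adjusted p = 5.0e-02, 5.1e-02 and 6.8e-02). It was also lost among the pedicels above 20% of identical-copy transcripts (log2 fold 0.26, adjusted p = 2.4e-01). With library totals alone both calls were lost (log2 fold 0.43 in males and 0.03 in females), on a scale where the median over all genes moved from 0.10 to -0.12 in males and from 0.08 to -0.43 in females.

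Between the sexes the log2 fold of Ir8a, male over female, was -0.06 in the pedicel (95% interval -0.42 to 0.30, adjusted p = 0.79) and -0.21 in the head (95% interval -0.57 to 0.15, adjusted p = 0.52). Ir8a was also the gene whose estimated counts carried fractions, in 20 of 20 libraries, while the other 6 genes had whole numbers throughout. The sources used here do not say how its reads were shared with other transcripts, so part of its counts may belong elsewhere. The gene most alike was AAEL022457, with a Pearson r of 0.892 over the 20 libraries.

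**Figure D3:**
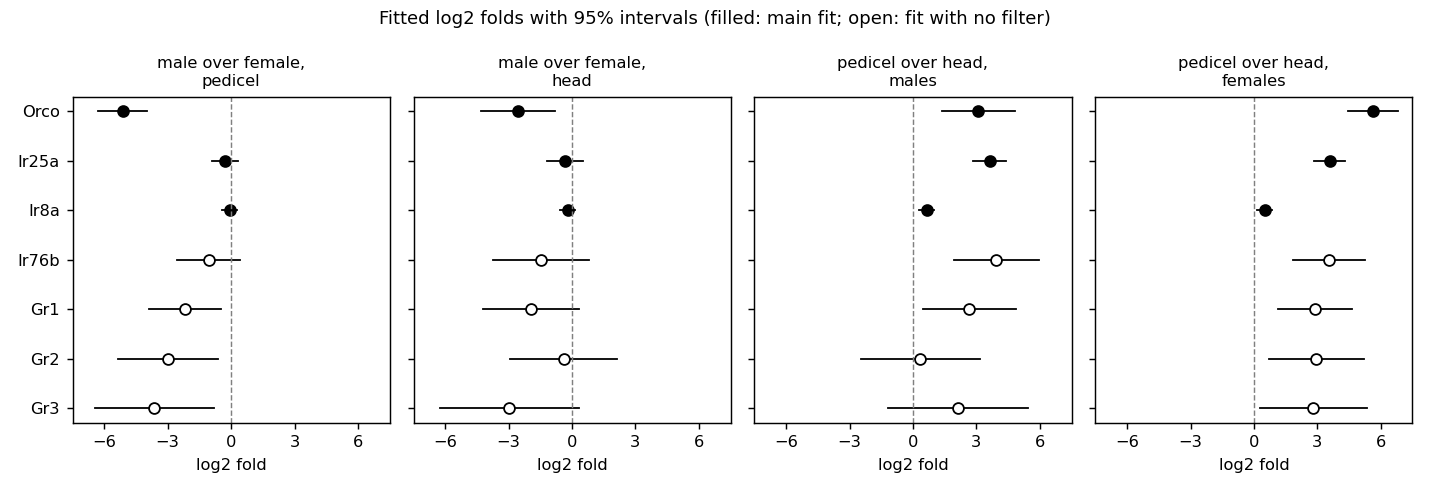
Log2 folds of the 7 genes with 95% intervals in 4 comparisons, male over female in pedicel and head and pedicel over head in males and females; filled circles come from the main fit of 11381 genes and open circles from a fit with no filter, and the dashed line marks no difference. Orco lies far to the left in the pedicel (-5.13), and Ir25a stands at 3.62 and 3.59 in the tissue comparisons with intervals that span 0 between the sexes.

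Ir76b, the coreceptor of amine-sensing receptors, had too few counts for the main fit, as did Gr1, Gr2 and Gr3. Their folds come from a fit with no filter, which held 17963 genes, and their adjusted p-values are over those genes. Intervals on counts cover counting error only. In the plot of log2 folds the 95% intervals are not adjusted for the number of genes, so an interval may leave out 0 where the adjusted p misses the threshold. The Gr3 folds against male heads, which held no counts, depend on the prior count and are no bound.

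Ir76b had 2, 5, 4, 11 and 9 counts in male pedicels and 4, 9, 4, 11 and 22 counts in female pedicels. It had 0, 0, 1, 0 and 1 counts in male heads and 2, 0, 1, 1 and 3 counts in female heads. On the CPM scale the pedicel libraries of each sex lay above all heads of that sex.

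Ir76b was higher in the pedicel than in the head in both sexes. Its log2 fold was 3.95 in males (SE 0.96, edgeR adjusted p = 2.5e-03; 33.4% of genes called) and 3.54 in females (SE 0.80, adjusted p = 2.9e-03; 21.9% called). With no male head library above 1 count, the ratio of the summed male counts was 17.3 with a 95% counting interval of 4.39 to 149. The exact permutation p on CPM was 0.0079 in each sex, two-sided, unadjusted, among 16 such tests and the smallest possible. It restates that the libraries of the tissues did not overlap. The same held for 35.8% of the genes of the main fit in males and 25.5% in females, in either direction. Both calls held without any 1 library, with log2 folds of 2.78 to 4.82 over all settings.

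Between the sexes the log2 fold of Ir76b was -1.05 in the pedicel (95% interval -2.54 to 0.43, adjusted p = 0.32). It moved to -0.28 without female pedicels 2 and 5. The mean was 1.2 ± 1.33 CPM in male and 2.24 ± 2.02 CPM in female pedicels, with overlapping libraries.

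The carbon dioxide receptors Gr1, Gr2 and Gr3, which act together in palp neurons, were unevenly spread over the female pedicels. Gr1 had 6, 21, 1, 2 and 50 counts in female pedicels 1 to 5, Gr2 had 5, 16, 1, 0 and 13, and Gr3 had 1, 8, 0, 0 and 13. Libraries 2 and 5 were the highest for each of the 3 genes, and libraries 3 and 4 held 0 to 2 counts of any of them.

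Female pedicels 2 and 5 together held 71 of the 80 Gr1 counts (88.8%, exact binomial 95% interval 79.7% to 94.7%), 29 of the 35 Gr2 counts (82.9%, 66.4% to 93.4%) and 21 of the 22 Gr3 counts (95.5%, 77.2% to 99.9%). Their share of the scaled library size of female pedicels was 37%. Their share of the Orco counts was 40.5% (38.3% to 42.6%), of Ir25a 45.5% (40.2% to 50.7%), of Ir8a 34.3% (28.4% to 40.6%) and of Ir76b 62% (47.2% to 75.3%). The level of head transcripts was 34.1% in library 2 and 67.8% in library 5, and 44.4% to 67.7% in the other 3. These libraries were singled out after their values were seen.

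**Figure D4:**
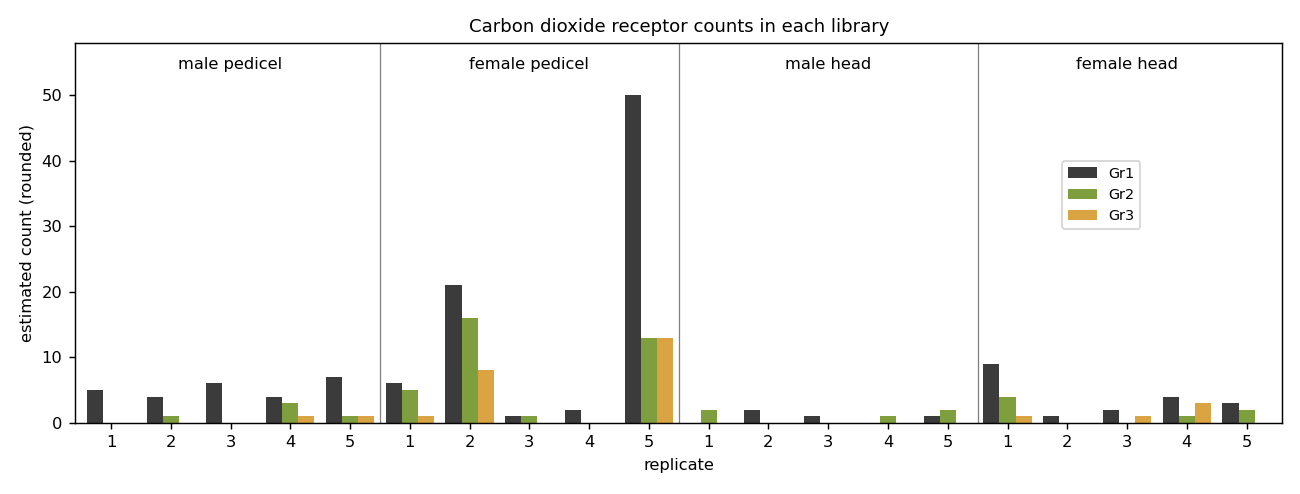
Rounded estimated counts of Gr1, Gr2 and Gr3 in each of the 20 libraries, by group and replicate. Female pedicels 2 and 5 hold 45 and 76 counts of the 3 genes together, and no other library holds more than 14.

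In male pedicels Gr1 was low but even, with 5, 4, 6, 4 and 7 counts, while Gr2 had 0, 1, 0, 3 and 1 and Gr3 had 0, 0, 0, 1 and 1. In female heads Gr1 had 9, 1, 2, 4 and 3 counts, Gr2 had 4, 0, 0, 1 and 2, and Gr3 had 1, 0, 1, 3 and 0. In male heads Gr1 had 4 counts over the 5 libraries, Gr2 had 5, and Gr3 had none, which allows a level of up to 0.075 CPM over the group. Of the 3 genes, Gr1 was the one with at least 1 count in every pedicel library of both sexes.

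Pedicel and head of males did not overlap for Gr1, at 0.821 ± 0.345 against 0.113 ± 0.139 CPM (exact permutation p = 0.0079, two-sided and unadjusted, 1 of 16 such tests). Nor did they overlap for 35.8% of the genes of the main fit. The edgeR log2 fold was 2.67 (SE 1.04), which did not pass the threshold over all genes (adjusted p = 0.054), and the adjusted p ran from 9.6e-03 to 1.1e-01 over the settings. For Gr2 the male tissue fold was 0.35 (95% interval -2.46 to 3.16, adjusted p = 0.88).

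In females the pedicel stood above the head by a log2 fold of 2.90 for Gr1 (SE 0.82, edgeR adjusted p = 1.4e-02), 2.94 for Gr2 (SE 1.06, adjusted p = 5.1e-02) and 2.81 for Gr3 (SE 1.19, adjusted p = 1.0e-01). Of the 3 genes, Gr1 passed the threshold of 0.05 in that fit, where 21.9% of all genes were called. The Gr1 call was lost without female pedicel 5 (log2 fold 1.54, adjusted p = 1.6e-01). Without female pedicels 2 and 5, singled out as the highest for these genes, the log2 folds were 0.20, 0.93 and -0.86. Lower folds were bound to follow from that pick. In the other 3 libraries the pooled Gr1 level was 0.567 CPM against 0.456 CPM in female heads (ratio 1.24, 95% counting interval 0.495 to 2.88).

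Between male and female pedicels the log2 folds were -2.18 for Gr1, -3.0 for Gr2 and -3.64 for Gr3, with edgeR adjusted p-values of 0.055, 0.057 and 0.058, where 22.9% of genes were called. None of these passed, and the libraries of the sexes overlapped for each gene (exact permutation p = 0.39, 0.21 and 0.29, two-sided and unadjusted). Gr1 passed with the filter set at a mean of 1 CPM (adjusted p = 4.0e-02). Without female pedicels 2 and 5 the Gr1 fold turned to 0.53, the Gr2 fold shrank to -0.95 and the Gr3 fold to 0.03. Those libraries were singled out as the highest for each of these genes, so smaller differences without them were bound to follow. Male and female heads did not differ at the threshold for any of the 4 genes outside the main fit, with edgeR adjusted p-values of 0.38 to 0.96, where 4.31% of genes were called. Nor was any of the 4 called in the interaction in that fit, where 5.36% of genes were called, and the adjusted p-values were 0.47 to 1.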

How the data were processed

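RNA was extracted with phenol and chloroform, and a sequencing centre made the libraries, per the labels' protocols. Per the submitters' processing notes the tools included FastQC, HISAT2 and featureCounts; no version, build or annotation is stated. In the authors' deposited table each transcript has unscaled estimated counts, with 1 column per library, matched through the sample descriptions. Estimated counts were summed per gene ID and rounded to whole numbers. The RefSeq table (assembly AaegL5.0) matched 0 of the 19804 gene IDs. The names of the 7 receptor genes come from the rule that chose them, and no sequence, length or position of theirs was used here.

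Genes passing filterByExpr (11381, with 3 of the 7 receptor genes) entered 1 edgeR 4.0.16 quasi-likelihood fit (R 4.3.3, TMM, robust, a mean per group, all 20 libraries), with Benjamini-Hochberg adjustment over all genes tested and calls at an adjusted p under 0.05. Standard errors are the absolute log2 fold over the square root of F, and 95% intervals use 16 residual degrees of freedom. The other 4 genes were fitted with no filter. CPM values use the TMM-scaled library sizes. The 50 head transcripts were those lowest in a pedicel relative to heads, among genes with 50 CPM or more in every head and a log2 fold within 0.5 of 0 between male and female heads. Every receptor gene is named, and for each of the 3 in the main fit also the 1 gene most correlated with it (log2 CPM, prior count of 2). The fits were tested on simulated data. Alternatives were other scalings, filters, DESeq2 1.42.0, limma-voom (limma 3.58.1), subsets of libraries, a replicate block, and a split of pedicels at 20% of counts in transcripts with values identical to those of another gene ID. The genes, tests and lists were chosen with earlier results of these data known.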

Additional observations from a re-analysis of the deposited data

Results flagged for a closer look

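In 36 groups of 5 libraries tested, 4 held a library whose gap to its neighbour was above Dixon's 95% critical value as a share of the group's range. For normally distributed values chance flags about 1 group in 20. That rate need not hold here, since many groups hold few counts. Gr1 stood at 12.8 CPM (50 counts) in female pedicel 5, against 0.231 to 3.87 CPM in the other 4 female pedicels. Ir76b stood at 3.51 CPM (11 counts) in male pedicel 4, against 0.233 to 1.01 CPM in the others. Gr2 stood at 0.958 CPM in the same library, on 3 counts, against 0 to 0.113 CPM. Male pedicel 4 had the lowest TMM factor, 0.49, which raises its CPM relative to its counts. The level of head transcripts in male pedicel 2 was 36.6%, against 4.34% to 5.64% in the other male pedicels. Those transcripts were picked by their lowest value in these same pedicels. The picking itself favours low values in the lowest libraries, so this gap is no fair test of an outlier.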

How the results depend on the processing

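Of 690 alternative values for single genes and comparisons, 624 kept their direction and their side of the threshold, 15 lost a call, 26 gained one and 25 changed sign, and the cause was not tested. Orco in the pedicel (log2 fold -6.25 to -4.32) and the tissue folds of Ir25a kept their calls in every alternative run. Few counts limit Ir76b, Gr1, Gr2 and Gr3. The labels do not say that replicate numbers pair libraries, and the libraries were not treated as paired, since 18 of 30 same-numbered pairs, not all, had a correlation over 0.1 (-0.09 to 0.41). The median was 0.13, against -0.04 for different numbers, and 12 of 20 libraries correlated best with their own number, a hint of partial pairing from the data and not from the design. With the replicate block 1 receptor gene was called between the heads (Orco, adjusted p = 3.7e-02).

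Between the heads 1 receptor gene was likewise called with library totals alone, DESeq2 and the split at 20% identical copies as a term. The same held with the pedicels above 20%, without male head 2 and female head 3, and without male pedicels 1 and 2. In these settings 3 receptor genes were tested, and 4 with the pedicels above 20% and without male pedicels 1 and 2. The alternatives without male pedicels 1 and 2 and without female pedicels 2 and 5 were not planned. With a mean of at least 1 CPM, 2 of 4 receptor genes tested were called between the pedicels. Over all genes 4480 were called there, against 4501 in the main fit. Over all genes, 894 were called between the heads, and 571 with library totals alone, 1157 with DESeq2 and 1190 with the split term. With the replicate block 1208 were called, with the pedicels above 20% 1819 and with only the groups compared 1497. Without male head 2 and female head 3 there were 1661, without male pedicels 1 and 2 974, and at an adjusted p under 0.01 520. Between female tissues 4028 were called, 2600 without female pedicels 2 and 5 and 2484 at 0.01. The interaction called 1352, 426 with library totals, 466 and 2275 with the pedicels at or below and above 20%, 2369 without male pedicels 1 and 2 and 497 at 0.01. Leaving out 1 library gave 3753 to 5358 genes between pedicels, 649 to 1198 between heads, 5307 to 6128 between male tissues, 3240 to 4102 between female tissues and 911 to 2694 in the interaction, the last without male pedicel 2. In the same runs 1 receptor gene was called between pedicels, 0 between heads, 3 between male tissues, 2 to 3 between female tissues and 0 in the interaction. Detection with at least 5 counts left 2 genes in male heads and 3 in female heads, and with 1 count in all 5 libraries 2 and 4.

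With library totals alone the sex fold in the pedicel turned to 0.11 for Ir25a and 0.25 for Ir8a. The Ir8a fold was 0.12 above 20%, and -0.19 to 0.07 when 1 library was left out, above 0 without male pedicel 5 (0.04) or female pedicel 1. Without female pedicels 2 and 5, alternatives added after seeing the data, the pedicel sex folds were 0.53 for Gr1 and 0.03 for Gr3, the female tissue fold of Gr3 was -0.86, and the interactions were 2.47 for Gr1 and 3.04 for Gr3. The Gr2 fold between heads was 0.35 without female head 1, and between male tissues -0.87 without male pedicel 4. The interaction of Ir25a was -0.07 above 20%, -0.20 to 0.29 when 1 library was left out, and -0.15, -0.12, -0.20, -0.16 and -0.18 without male pedicel 5, female pedicel 1, male head 3, male head 4 and female head 5. That of Ir8a was -0.06 at or below 20% and -0.03 without male pedicels 1 and 2, also an unplanned alternative. That of Ir76b was -0.32 without male pedicel 4 and -0.05 without female head 5. That of Gr1 was 1.13 without female pedicel 5 and 0.44 without male head 2, and that of Gr3 was 0.52 without female pedicel 5.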
